A study of Macaca fascicularis with 8 samples.

Results

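Kidney-only regions were stretches of the cynomolgus monkey genome at which a chromatin accessibility peak was called in kidney and in none of 6 other organs. The peak lists of colon, heart, kidney, male liver, lung, spleen and uterus were merged wherever peaks overlapped by at least 1 bp, and regions with a kidney peak and no other peak were kept. Of 245443 merged regions, 29922 (12.2%) were kidney-only. They made up 27.7% of the 107971 kidney peaks (exact binomial 95% interval 27.4 to 28.0) and 23.7% of the 126366 regions found in a single list. Because the regions were chosen by peak calls, the lack of a peak in the other organs is how they were selected and not a result. A region without a peak in another library also has no count there, so it could not be told whether it was closed in that organ or open below the level at which a peak is called.

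Single-cell ATAC-seq (scATAC-seq) was measured in 8 libraries of 7 organs from 2 healthy cynomolgus monkeys of 4 years of age, with no treatment given in the labels and the condition given as normal. The male gave kidney, spleen and the male liver, and the female gave uterus, colon, heart, lung and the female liver. There was 1 kidney library from 1 animal, so nothing could be compared with a spread between animals, and all intervals cover counting error only. Organ, animal and library cannot be told apart for the organs that were taken from 1 animal.

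In scATAC-seq a transposase cuts open chromatin in single nuclei and tags each cut with the barcode of its droplet. Open regions include promoters, which tend to be open in many tissues, and distal elements such as enhancers, which are often open in few cell types. The kidney filters blood and then adjusts the filtrate along a chain of tubule segments lined by different epithelial cells, with vessels, stroma and immune cells around them. Its nuclei are therefore a mixture in which proximal tubule cells are usually the most common.

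The kidney library held 9724 barcodes, called cells here, and 40995276 counts of cut ends in peaks. Every cell had at least 1529 counts, with a median of 3693.5 and a highest value of 39100, so the minimum of 1000 counts removed none. Across the 8 libraries total counts lay between 2627231 (female liver) and 110748462 (colon), and how the number of peaks called follows depth and cell number was not tested. Of the kidney barcodes, 926 were also found in another library, from 28 in the female liver to 268 in spleen. The main results per cell were repeated without them, and the SD over cells and the depth classes were not. Genes could not be assigned to the peaks because no gene table of the build of the peaks was used here, so the kidney label was not checked against marker genes and no cluster was given a cell type.

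Kidney-only regions were smaller and sparser than the kidney peaks shared with other organs. A wide peak has more room to overlap another list, so width and the counts that go with it are tied to the selection. They covered 17.0% of the base pairs in kidney peaks and held 4696835 counts, 11.5% of all counts. This came to 356 counts per kb, against 715 in the 24559 kidney peaks found in all 7 lists and 528 in all kidney peaks. The median kidney-only region had 96 counts, with quartiles of 58 and 181, a 95th percentile of 503 and a highest value of 4406. Kidney peaks in 2 to 6 lists had a median of 130 counts and those in all 7 lists 558. No count was found in 329 kidney-only regions (1.10%), against 0.672% of all kidney peaks. The 1000-count level was reached by 276 of them (0.922%).

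**Figure D1:**
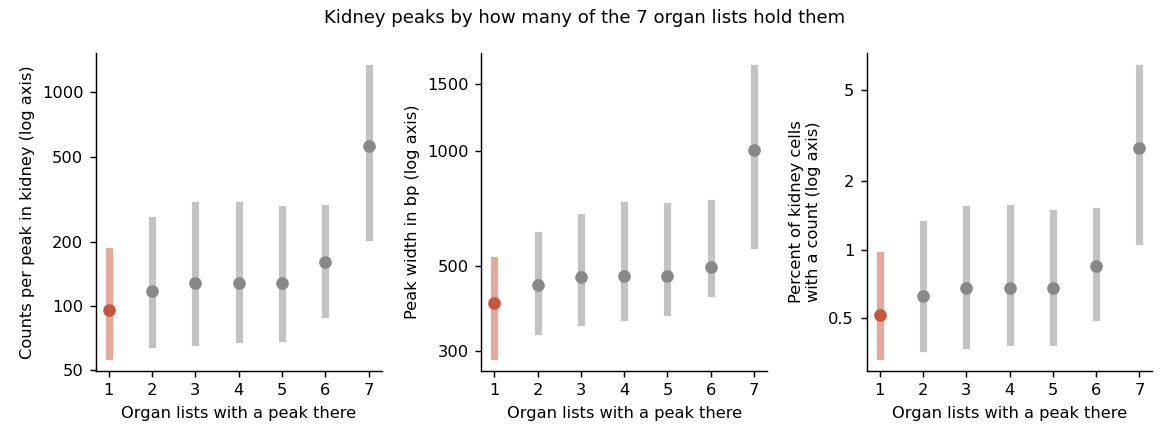
Counts per peak, peak width in bp and percent of kidney cells with a count (all on log axes) for kidney peaks by the number of organ lists that hold them. Points are medians, bars run from the lower to the upper quartile, and kidney-only regions are in red; their medians of 96 counts, 401 bp and 0.514% of cells were the lowest of the 7 classes, and peaks in all 7 lists stood apart with 558 counts, 1007 bp and 2.79% of cells.

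Their median width was 401 bp, with quartiles of 290 and 520 bp, against 1007 bp for kidney peaks in all 7 lists. Only 4.35% were 1000 bp or wider, whereas 50.4% of the peaks in all 7 lists were. At the other end, 6.75% were under 100 bp wide, against 1.40%. Width and counts went together, and the classes were compared at equal width. Among peaks of 200 to 300 bp, the median was 55 counts in kidney-only regions, 49 in 2 to 6 lists and 39 in all 7 lists. Among peaks of 400 to 500 bp, the median was 124 counts in kidney-only regions, 119 in 2 to 6 lists and 117 in all 7 lists. Among peaks of 1000 to 2000 bp the medians were 462.5, 518 and 1014 counts. Kidney-only regions thus had the highest median of the 3 classes among the narrowest of these peaks and the lowest among the widest.

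A kidney-only region was typically seen in very few cells. The median region had a count in 0.514% of the 9724 cells and the highest in 18.6%, while the median peak in all 7 lists had one in 2.79%. A count in at least 1% of cells was found for 6921 kidney-only regions (23.1%; 95% interval 22.7 to 23.6) and for 77.2% of peaks in all 7 lists. At 5% of cells these shares were 0.872% and 32.5%. At this depth a cell with no count at a region cannot be read as closed there. With every cell thinned to 1000 counts, the median kidney-only region had a count in 0.123% of cells.

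Counts were uneven between the regions, about as much as among shared peaks. The 2992 kidney-only regions with most counts, 10% of them, held 38.8% of the kidney-only counts, and the same share of peaks in all 7 lists held 36.2%. The top 1% held 8.68% against 7.78%. It took 4791 regions, 16.0% of all kidney-only regions, to reach 50% of their counts.

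The regions with most counts were wide. The highest, chr13:8614507-8621281, was 6775 bp wide and had 4406 counts in 1805 cells (18.6%). In the clusters of cells described below, taken from the largest to the smallest, it was found in 14.6%, 30.6%, 26.6%, 11.8% and 17.5% of cells. The next, chr12:63674589-63680349, was 5761 bp wide with 3766 counts in 1627 cells (16.7%). The third, chr20:42929587-42940451, was the widest of all kidney-only regions at 10865 bp and had 3764 counts, but in only 1149 cells (11.8%). After these came chr15:85287162-85289257 with 3132 counts, chr9:75632069-75633449 with 2965 and chr14:5603519-5605044 with 2858. The last 4 of the 10 were chr10:67511844-67513349 with 2809 counts, chr3:159293658-159296795 with 2805, chr1:176085301-176086377 with 2625 and chr20:75372970-75375300 with 2609. These 7 were each in 11.8% to 14.0% of cells and between 1077 and 3138 bp wide. The positions are those of the deposited peaks, counted from 1, and strand does not apply to a peak.

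The values on both sides of the edge of the selection were as follows. Another organ's peak lay within 100 bp of 456 kidney-only regions, which had a median of 76 counts and 360.5 bp. A further 3683 kidney peaks overlapped another list by only 1 to 100 bp and were left out; their medians were 10 counts and 81 bp, and since an overlap cannot exceed a peak's width, every shared peak of 100 bp or less falls in this class. The 29466 kidney-only regions farther than 100 bp from any other list had medians of 96 counts and 401 bp. The median gap to the nearest peak of another list was 3305.5 bp, and 20.0% of the regions had one within 1000 bp. The member with most counts so close to another list was chr2:36323189-36324905, with 1343 counts and a gap of 87 bp. It was followed by chr15:39152257-39153435 with 1219 counts and a gap of 23 bp, chr5:84676642-84677449 with 1184, chr4:10547748-10549905 with 1030 and chr1:210187469-210188712 with 916. Just outside, chr4:926291-928605 had 2513 counts and was left out for an overlap of 11 bp, and chr3:96021409-96023568 had 2443 counts and an overlap of 29 bp. The others were chr11:46816039-46817480 with 1975 counts, chr10:70860726-70862581 with 1821 and chr9:23654502-23656780 with 1555. These examples are the strongest on each side.

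Kidney had a larger own-only share than 5 of the other 6 lists. Own-only regions were 27.8% of male liver peaks, 27.7% of kidney peaks and 22.7% of colon peaks. They were 18.0% in heart, 16.9% in lung, 13.4% in spleen and 6.13% in uterus. In counts, the own-only share was 11.6% in male liver and 11.5% in kidney, and between 1.76% and 6.04% in the other 5. How far these shares follow from cell number and depth was not tested.

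The female liver list took no part in the selection and gave a look at the same regions in another library. It was the longest of the 8 lists, with 165942 peaks, and came from the library with the fewest counts. How much overlap such a list has with positions taken at random was not tested. It held a peak at 1807 of the 29922 kidney-only regions (6.04%; 95% interval 5.77 to 6.31). The share was 34.9% for kidney peaks in 2 lists and 94.9% for those in all 7. It was 5.56% among kidney-only regions under 50 counts and 9.35% (7.94 to 10.9) among those with at least 500. Among own-only regions of other organs, the female liver share was 5.58% (4.67 to 6.60) for uterus and 10.3% for lung. It was 12.9% for colon, 13.0% for heart, 33.0% for spleen and 33.4% for male liver. The uterus-only and kidney-only intervals overlapped, and the other 5 shares lay above both. The selection required that the male liver had no peak, which applies to all of these own-only classes but the male liver's own. The 1814 female liver peaks concerned held 8551 counts with a median of 2, and 557 of them held none. Of the kidney peaks in exactly 2 lists, those shared with the male liver had a female liver peak in 47.6% and those shared with another organ in 15.0%.

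Along the genome, kidney-only regions were more evenly spread than the peaks of all 7 lists. They lay on all 21 chromosomes at 4.77 per Mb on chromosome X to 13.3 per Mb on chromosome 16, with a median of 10.6. The length of a chromosome was taken as the end of its last peak in any list. X was also lowest for kidney peaks of any kind, at 15.5 per Mb. The kidney came from the male, and the values of X were not corrected for this. Peaks in all 7 lists ran from 3.49 per Mb on X to 29.8 on chromosome 19. The kidney-only share of kidney peaks was therefore lowest on chromosome 19, at 13.8% (95% interval 12.7 to 14.9), and highest on chromosome 5, at 33.1% (31.7 to 34.4). Chromosome 16 followed at 21.4% and chromosome 10 at 22.8%. Over the 21 chromosomes, the share fell with the density of peaks in all 7 lists (Pearson's r = -0.97, Spearman's rho = -0.95), where the numerator of the density is part of the denominator of the share. The number of kidney-only regions per Mb had r = 0.35 and rho = 0.70 with that density, or 0.77 and 0.91 without chromosome 19. Chromosome 19 had the most peaks of all 7 lists per Mb and 8.77 kidney-only regions per Mb, below the median chromosome. The regions themselves were alike on all chromosomes, with median counts of 87.5 to 105 and median widths of 381 to 417 bp.

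**Figure D2:**
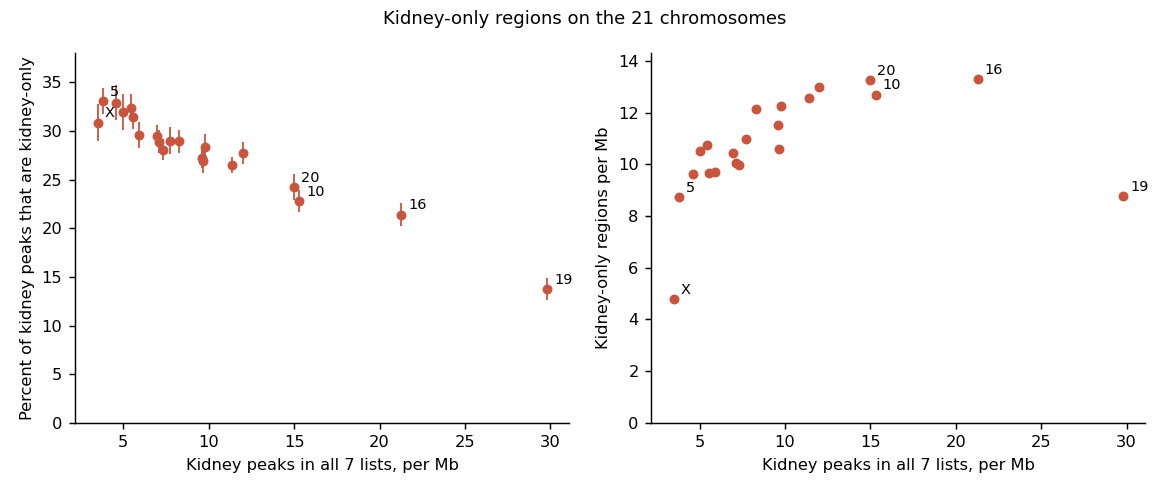
Percent of kidney peaks that are kidney-only (left, with exact binomial 95% intervals) and kidney-only regions per Mb (right) against the density of kidney peaks found in all 7 lists, each point 1 of 21 chromosomes and some named. The percent ran from 33.1% on chromosome 5 down to 13.8% on chromosome 19, while the number per Mb rose from 4.77 on X to 13.3 on chromosome 16 and was 8.77 on chromosome 19.

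In windows of 1 Mb, 2815 in all, the mean was 10.6 kidney-only regions and 123 windows (4.37%) had none, against 19.7% without a peak of all 7 lists. The variance over the mean was 6.15 for kidney-only regions, 12.3 for peaks in 2 to 6 lists, which were missing from 3.91% of windows, and 15.3 for peaks in all 7 lists. The means differed too, at 10.6, 18.9 and 8.65 per window. In the 563 windows with fewest peaks of all 7 lists the mean was 4.38 kidney-only regions, and in the 563 with most it was 15.4. The fullest window, 56 to 57 Mb on chromosome 12, held 61 kidney-only regions and 3 peaks of all 7 lists. Windows with 56, 53, 47 and 44 followed on chromosomes 1, 20, 7 and 1, with 12, 1, 29 and 14 peaks of all 7 lists.

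A kidney-only region came next more often after a kidney-only region than after another kidney peak, as a share of each. After a kidney-only region, the next kidney peak was kidney-only in 40.1% (11989 of 29917; 95% interval 39.5 to 40.6), and after any other kidney peak in 23.0% (22.7 to 23.3), where 27.7% of all kidney peaks were kidney-only. The most common case was a kidney-only region on its own between other kidney peaks, which held for 11702 of them (39.1%). Regions in runs of 3 or more numbered 10990 (36.7%), in 2616 runs. The median gap between neighbouring kidney-only regions was 31749 bp, and 26.9% were under 10 kb apart. They lay a median of 48147 bp from the nearest kidney peak of all 7 lists, against 39503 bp for peaks in 2 lists and 21805 bp for peaks in 6 lists.

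The longest run was on chromosome 12, chr12:56721546-56813666, where 23 kidney peaks in a row were kidney-only. These 23 regions, with a median width of 327 bp, stood within 92121 bp, and 1002 cells (10.3%) had a count in at least 1 of them. Together the 23 regions held 1893 counts, between 3 and 291 each, and 81.6% of the fragments came from the largest cluster of cells. The next runs were longer in base pairs and less dense. A run of 22 regions at chr2:12358154-13841553 held 5018 counts, and 1 of 20 at chr5:126933685-128545869 held 3547. Of 4 runs of 19, those with most counts stood at chr8:4215062-6026853 with 3633 counts and chr4:53542608-54158110 with 3455. In these 5 runs the largest cluster gave 78.2% to 81.6% of the fragments, against 73.6% over all kidney-only regions. Of their regions tested in held-out cells as described below (1, 5, 5, 6 and 8), none was at least 4-fold higher in 1 cluster. Among all kidney-only regions tested, 10.4% were.

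Within the kidney library, the kidney-only counts were spread over all cells. Every cell had counts in kidney-only regions, from 46 to 4066 with a median of 404, in a median of 207 different regions. As a share of a cell's counts this was a median of 11.7%, with a 5th percentile of 6.08% and a 95th of 14.3%. In colon, the share of counts in colon-only regions ran from 1.63% at the 5th percentile of cells to 14.8% at the 95th, and in male liver from 2.01% to 14.5%. In spleen, from the same male as kidney, it ran from 1.22% to 4.49%. The kidney range was thus the narrowest of these in ratio, and spleen was the nearest to it. The 10% of cells with most kidney-only counts (972 cells) held 24.1% of them. The same was 20.9% for peaks in all 7 lists and 21.8% for all peaks. Thinned to 1000 counts per cell, the values were 13.8% and 12.4%. Since the cells are ranked by the same counts, counting alone lifts such a share, and more so for the class with fewer fragments per cell, so the difference between these values is not read as concentration. Without the 926 barcodes found in other libraries the share held by the top 10% was 24.1%, and kidney-only regions held 11.4% of counts.

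The share nevertheless differed between cells by more than counting. Its SD over cells was 2.60 percentage points of fragments, 3.32 times the 0.784 that fragment counting alone gives. It also went with depth, from 9.85% of the counts in the 1945 shallowest cells (1529 to 2282 counts) to 12.4% in the 1944 deepest (5771 to 39100). Over cells, the share of fragments had r = 0.33 with the logarithm of depth and rho = 0.32 with depth. The part of depth in the spread was not tested beyond these values.

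Cells were then clustered without any kidney-only region, on 18951 kidney peaks found in all 7 lists, which gave 5 clusters. The kidney-only share differed between them. The largest, cluster 1, with 5825 cells (59.9%), had 12.8% of its counts in kidney-only regions. Cluster 2, with 1683 cells, had 9.68%. Clusters 3, 4 and 5, with 980, 653 and 582 cells, had 8.26%, 7.95% and 8.25%. Cluster 1 thus stood above the other 4, and its 5th percentile over cells (10.5%) was above the median cell of each of them (7.24% to 9.35%). Peaks had been called on all cells of the library together, and cluster 1 gave 66.6% of all counts. A region open only in a small cluster was thus harder to call, so the selection favours cluster 1. How far the difference follows from this was not tested. Peaks in all 7 lists took 52.3% of the counts in cluster 1 and 60.7% to 64.2% in the others. Cluster 1 gave 73.6% of the kidney-only fragments, 70.5% of those in 2 to 6 lists and 62.5% of those in all 7 lists. Cluster 4 was the most mixed, with cells from 3.10% at the 5th percentile to 11.5% at the 95th and a spread 3.66 times that of counting, against 1.65 times in cluster 1.

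**Figure D3:**
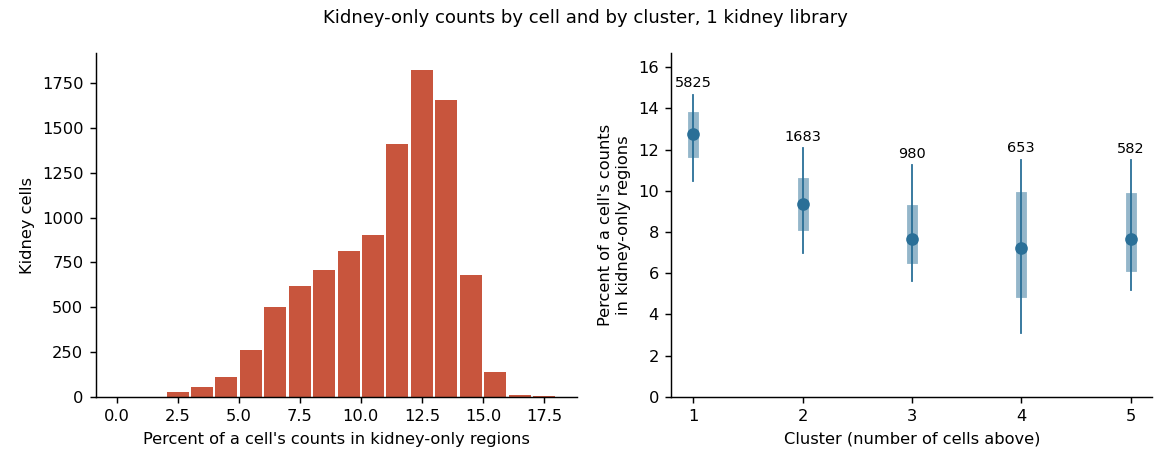
Left, number of kidney cells by the percent of their counts in kidney-only regions, in steps of 1 percentage point; right, the same percent by cluster, with the median cell (point), quartiles (thick bar) and 5th to 95th percentiles (line), and the number of cells above. Cluster 1 had its median cell at 12.8% and the other 4 clusters between 7.24% and 9.35%.

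Cluster 1 was also the deepest, with a median of 4253 counts per cell against 2417.5 to 3384 in the others. By depth within clusters, the shallowest 20% of cluster 1, with up to 2572 counts, had 12.4%, and the deepest 20% of the other clusters, from 3346 counts up, had 9.33% to 10.6%. Within each cluster the deepest 20% of cells were above the shallowest, by least in cluster 1 (12.4% to 12.9%) and by most in cluster 4 (6.78% to 9.43%). Likely doublets were 9.79% of cluster 1 and 13.5% of cluster 4, against 9.72% of all cells and 4.81% of cluster 5. The 9.72% was set beforehand from the number of cells and is not a measured rate of doublets. Without the barcodes found in other libraries the values of clusters 1 and 4 were 12.8% and 7.93%.

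How far single regions differed between clusters was measured in held-out cells. For each kidney peak with at least 200 counts, the cluster with the highest rate was chosen in the cells at odd places of the barcode list, and its fold over all other cells was taken in the cells at even places. Only this choice was held out. The clusters had been made from all cells on peaks of all 7 lists, so for those peaks the measured cells had also shaped the clusters. Of the 6617 kidney-only regions with enough counts (22.1% of 29922), 685 (10.4%; 95% interval 9.63 to 11.1) were at least 4-fold higher in the chosen cluster. Over all 43878 kidney peaks tested this share was 5.14%. It fell with the number of lists, from 8.23% in 2 lists and 6.84% in 3 to 3.76% in 6 and 1.92% (1.73 to 2.12) in all 7. The median fold was 2.30 for kidney-only regions and 1.38 for peaks in all 7 lists. The order was the same in each class of counts. From 200 to below 300 counts, 13.5% of kidney-only regions passed, 8.63% of peaks in 2 to 6 lists and 6.88% in all 7. From 1000 counts up, the shares were 4.35% (12 of 276), 1.68% and 0.172%. The share was 6.05% (all peaks 3.81%) at the finer resolution of 1.2. It was 16.5% (858 of 5201; all peaks 7.29%) with likely doublets removed, which changed the cells, the clusters and the regions tested together; 445 of the 685 were among the 858, and regions no longer tested are among those that were not. Without the barcodes found in other libraries it was 11.4% (661 of 5790; all peaks 5.24%). The interval covers none of this. The cells are those of 1 library, so these folds are descriptions without a test.

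**Figure D4:**
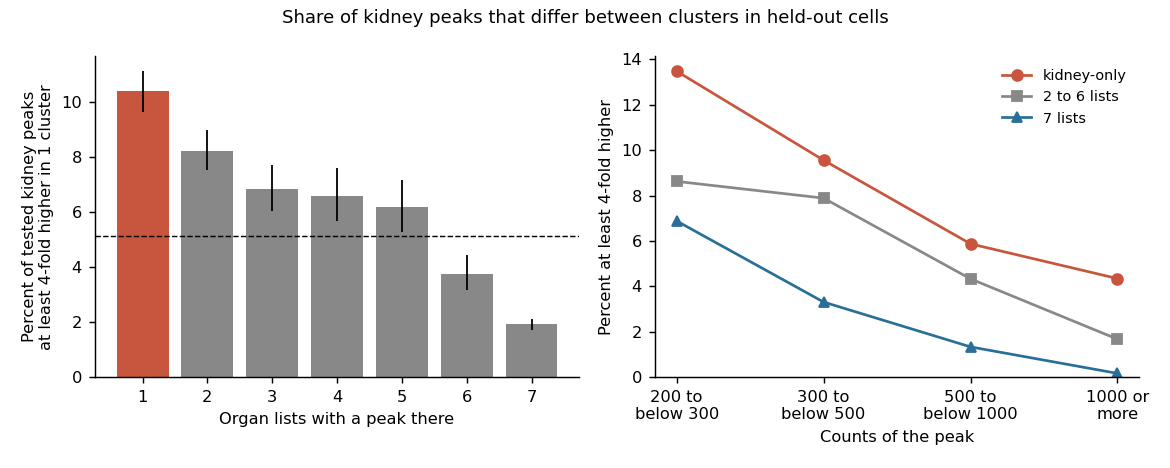
Percent of kidney peaks with at least 200 counts that were at least 4-fold higher in 1 cluster of held-out cells, by number of organ lists (left, exact binomial 95% intervals; the dashed line is the 5.14% of all peaks tested) and by counts of the peak (right). Kidney-only regions were highest at 10.4%, peaks in all 7 lists lowest at 1.92%, and the order held in all 4 classes of counts.

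Most called regions were of clusters 1 and 2. Cluster 1 had 299 (43.6%), cluster 2 had 289 (42.2%), cluster 3 had 88, cluster 5 had 9 and cluster 4 none, while cluster 4 had 165 called peaks of any kind, of which 137 were peaks of all 7 lists, the class used for clustering. In cluster 1 that class gave 11 of 644. Among all called peaks the shares of clusters 1, 2 and 3 were 28.5%, 36.9% and 22.8%. A 4-fold difference is harder to reach in a large cluster. It takes 88.8% of a region's counts in cluster 1, 42.4% in cluster 2, 27.0% in cluster 3 and 18.9% in cluster 4. Of the 6617 regions tested, 4535 had their highest rate in cluster 1. Called regions were not the same when the odd and even cells changed places: 668 passed then, of which 366 were among the 685. Which regions passed thus depended on the cells used more than how many did.

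The largest folds were found in clusters 2 and 3. With 1 fragment added on both sides, the highest fold that few fragments can reach is lower in a large cluster. The folds are therefore not compared between clusters. In cluster 3, chr12:11078430-11078943 was 41.7-fold higher in the held-out cells, where 44 of its 54 fragments fell in this cluster. It had a count in 8.57% of cluster 3 cells and at most 0.309% of the cells of any other cluster. Then came chr6:167311105-167311932 at 36.5-fold and chr1:218598735-218599301 at 31.1-fold. In cluster 2, chr3:157750118-157750656 was 28.0-fold higher, with 46 of 54 held-out fragments, and was found in 5.05% of cluster 2 cells. It was followed by chr7:101304496-101305068 at 22.4-fold and chr1:91654015-91654718 at 19.5-fold. In cluster 1, chr2:247099-247735 had 55 of 56 held-out fragments in the cluster, a 14.1-fold difference, and was found in only 1.77% of its cells. The other leading regions of cluster 1 were chr16:52507575-52508596 at 13.8-fold and chr8:26702224-26702858 at 9.41-fold. All 9 had between 221 and 311 counts, so each fold rests on few fragments. The 9 were also picked by this same fold, so for them it is no longer held out and tends to be too high. Over all cells, cluster 1 gave 93.9%, 92.2% and 90.4% of the fragments of its 3 regions.

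**Figure D5:**
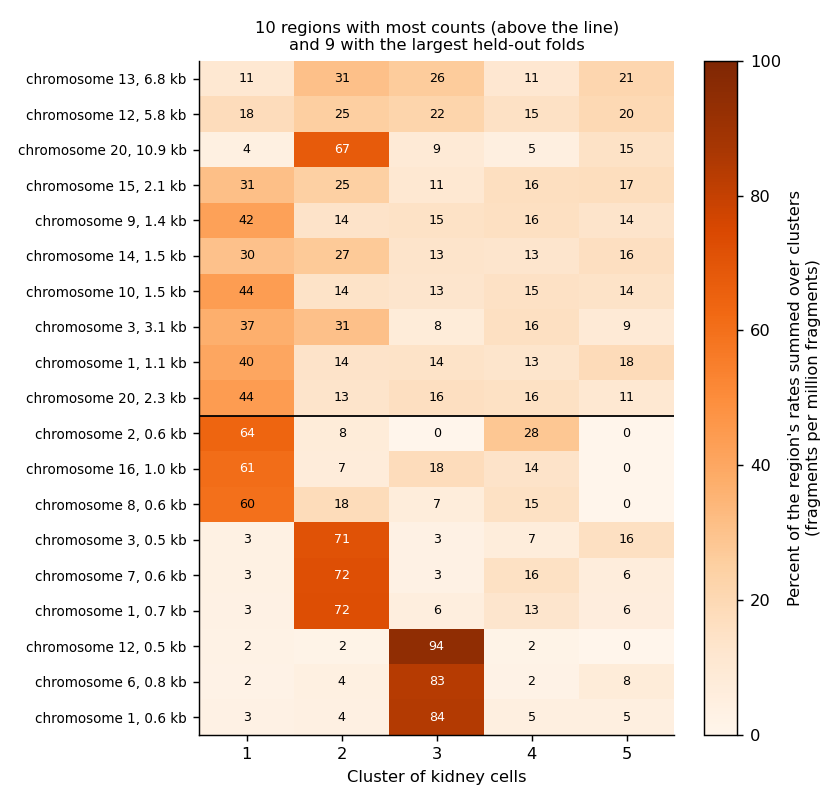
Rate of fragments, relative to all fragments of the cluster, in each of 5 clusters, as a percent of the sum over clusters, for the 10 kidney-only regions with most counts (above the line) and the 9 with the largest held-out folds (below it), named by chromosome and width. The widest region, on chromosome 20, had 67.2% of its summed rates in cluster 2, and the region of the largest fold, on chromosome 12, had 94.3% in cluster 3.

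Called regions close to each other tended to be of the same cluster. Of 24 neighbouring pairs under 10 kb apart, all 24 shared their cluster, as did 35 of 45 (77.8%) at 10 to 50 kb and 41 of 55 (74.5%) at 50 to 200 kb. Between 200 kb and 1 Mb it was 66 of 167 (39.5%), and the clusters' shares of called regions give 38.5%.

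The number of cells that hold a region's fragments was close to what depth alone gives. If fragments fell on cells in proportion to depth, the median kidney-only region with at least 20 fragments (26802 regions) would be seen in slightly more cells than it was, with a ratio of observed to expected cells of 0.982. This was 0.981 for peaks in 2 to 6 lists and 0.975 for all 7, but the ratio fell with the number of fragments, which differed between the classes. From 20 to below 50 fragments, the class with most kidney-only regions (11163), it was 1.001 in kidney-only regions and 0.981 in peaks of all 7 lists. From 50 to below 100 both were at 0.984. From 200 to below 500 fragments it was 0.973 in kidney-only regions and 0.975 in peaks of all 7 lists, and from 1000 up it was 0.954 (23 regions) and 0.970. A ratio at or below 0.9 was found in 0.358%, 0.320% and 0.264% of them. The ratio responds weakly when fragments are few: for 50 fragments it would be 0.973 if all of them fell in cluster 3, and for 1000 fragments 0.633. It could thus not show concentration in a cluster for most of these regions.

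The 3 lowest ratios among kidney-only regions of at least 50 fragments were on chromosome 20. The widest region, chr20:42929587-42940451, was seen in 1149 cells where 1677 were expected, a ratio of 0.685. Its highest cell had 28 counts, against 6 to 10 in the other 9 regions with most counts. It was 13.1-fold higher in cluster 2 in the held-out cells and was found in 41.1% of cluster 2 cells and 4.96% of cluster 1 cells. A female liver peak without a count lay on it. The last of the 5 widest, chr20:18952654-18957356, was 4703 bp wide and had 1510 counts in 512 cells, with a ratio of 0.705 and a 7.41-fold difference in cluster 2. Between them in width, chr17:76979449-76984472 at 5024 bp and 2287 counts, had a ratio of 0.953. The other 3 of the 5 lowest ratios were in smaller regions. They were 0.837 at chr20:18229224-18229672 with 131 counts, 0.854 at chr1:208732533-208734147 with 222 and 0.868 at chr9:17988225-17988761 with 92. In these 3, the 10 cells with most counts held 32.1%, 20.7% and 34.8% of the counts, and their values rest on few cells. A low ratio, by which they were picked, and few counts both raise this share. It is therefore not read as a separate sign of concentration.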

How the data were processed

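Per the file headers and the submitters' notes, the authors made the files with Cell Ranger ATAC 1.2.0, which called peaks in each library separately. The deposited values are raw counts of transposase cuts for each peak and barcode, without normalization; most are even, since a fragment has a cut at either end. A fragment was counted as the count divided by 2, rounded up. The sources used here do not give the genome build of the peaks. The members and lists were chosen with earlier results of these data known. Barcodes with at least 1000 counts were used, 9724 in kidney. Intervals are exact (Clopper-Pearson) at 95%. Cells were clustered by TF-IDF, 30 singular vectors (1 tied to depth left out), 20 nearest neighbours and Leiden at resolution 0.8 (leidenalg 0.10.2, scikit-learn 1.9.0, scipy 1.17.1). Clusters under 1% of the cells were not counted, which left out 1 cell. Doublets were scored against simulated pairs of cells and the 945 highest, a number set beforehand from the number of cells, were left out in an alternative. Held-out folds add 1 fragment on both sides. Scripts were checked on simulated data. With 1 kidney library, no test between groups was run. Regions named are the 10 with most counts, the 5 widest, the 5 longest runs (ties by summed counts), the 3 largest folds in each of the 3 clusters with most called regions, the 5 lowest ratios among regions of at least 50 fragments, and the 5 with most counts on each side of the selection's edge. The alternatives varied the lists merged, the overlap, the barcodes kept, the clustering and the minimum counts. No sequence was printed because no genome of the peaks' build was used here.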

Additional observations from a re-analysis of the deposited data

How the results depend on the processing

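Of 54 alternative values (46 planned and 8 chosen after seeing the data), 22 stayed within the counting interval or within 1.5 times the main count. The number of kidney-only regions fell from 29922 to 9223 when only peaks seen in 1% or more of barcodes were used, and was 42653 without the male liver list and 28115 with the female liver list added. With only those peaks, kidney-only regions were 20.5% of kidney peaks, against 27.7% in the main setting. Their median width was then 647 bp, the next kidney peak was kidney-only in 34.5%, and the highest chromosome share was 26.0%, on chromosome 17. With the female liver list added, kidney-only regions were 26.0% of kidney peaks. The share of counts was then 10.6%, the share of next peaks 38.5% and the highest chromosome share 31.1%. With cells of at least 2000 counts, the kidney-only regions held 11.6% of counts, the median region had 91 counts in 0.568% of cells, and the top 10% of cells held 22.6%. With likely doublets removed these were 11.4%, 80 counts, 0.478% and 23.1%. With cells thinned to 1000 counts the cells per region and the top 10% were 0.123% and 13.8%, and without barcodes of other libraries the top 10% held 24.1%. The ratio of observed to expected cells was 0.980 from 50 fragments and 0.983 from 10. The highest cluster had 12.7% at resolution 0.4, 12.8% at 1.2 and 12.8% without doublets, and the lowest 7.72%, 7.70% and 7.23%, or 7.82% with another seed. Regions past 4-fold numbered 858 of 5201 without likely doublets, where the shares were 7.29% of all peaks and 16.5% of kidney-only regions; 400 at resolution 1.2, where all peaks gave 3.81% and kidney-only regions 6.05%; 1918 from 100 counts, where the shares were 7.99% and 13.3%; and 149 from 400 counts, where they were 2.53% and 6.46%. Female liver peaks with a count overlapped 4.20% of the regions, and overlaps of at least 50% of either peak were found in 4.90%. Depth limits all values per cell, and with 1 kidney library no value has a spread between animals. No paired analysis was possible because the kidney was taken from 1 animal only.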
